A study of Mus musculus with 18 samples.

Results

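Transcript levels of 10 genes of pro-B and pre-B cells were examined in sorted mouse bone marrow B cells. The animals were del/del or heterozygous for a deletion in Smchd1, which encodes the chromatin silencing protein SMCHD1. The 10 genes were Rag1, Rag2, Dntt, Igll1, Vpreb1, Vpreb2, Vpreb3, Il7r, Lef1 and Erg. They were chosen as the rows of these names in the 2 deposited tables of raw counts, 1 table for each sex, and all 10 were found among 25965 rows. All 10 passed the filter on low counts in each comparison.

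The libraries were made from polyA RNA of CD45.2+ B220+ Mac1- cells sorted from femurs of C57BL/6 mice aged 12 to 16 months. The del/del animals had the genotype Smchd1 del/del with a Vav-Cre transgene, and the heterozygous animals had the genotype Smchd1 del/+ with the same transgene. Vav-Cre is active in blood-forming cells at large, so the deletion was not confined to B cells, and both groups carried at least 1 deleted allele. There were 4 del/del and 4 heterozygous male libraries and 5 del/del and 5 heterozygous female libraries, and the labels number each animal separately. No library without a deleted allele was analysed here.

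In developing B cells, RAG1 and RAG2 together cut DNA at antigen receptor gene segments, and terminal transferase, encoded by Dntt, adds bases at the joints. A rearranged heavy chain is first tested on the surface with the surrogate light chain, which is built from the Igll1 product (lambda 5) and a VpreB protein. Il7r encodes the alpha chain of the receptor for interleukin 7, the growth factor of early B cells in mouse marrow, and Lef1 and Erg encode transcription factors of early B cells. These genes are turned off or lowered as cells mature, and Rag1 and Rag2 are used again in small pre-B cells, which no longer make the surrogate light chain.

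The genes lie at a few places in the genome (mm10, coordinates as the tables give them). Rag1 (ENSMUSG00000061311, chr2:101638282-101649501, minus strand) and Rag2 (ENSMUSG00000032864, chr2:101624718-101632529, plus strand) are neighbours with 5752 bases between them. Igll1 (ENSMUSG00000075370, chr16:16860671-16863985, minus strand) and Vpreb1 (ENSMUSG00000059305, chr16:16868402-16870843, minus strand) are 4416 bases apart. Vpreb2 (ENSMUSG00000059280, chr16:17980565-17981080, plus strand) lies elsewhere on the same chromosome. Their promoters are shown because the levels of Rag1 with Rag2, and of Igll1 with both Vpreb genes, moved together from library to library. Each runs from 250 bases before to 50 bases after the start of the RefSeq gene in GRCm38.p6 and is printed on the gene's own strand. The windows were chr2:101649483-101649782 (minus) for Rag1, chr2:101624462-101624761 (plus) for Rag2, chr16:16863936-16864235 (minus) for Igll1, chr16:16869206-16869505 (minus) for Vpreb1 and chr16:17980315-17980614 (plus) for Vpreb2. Capitals mark the E-box CAGNTG on either strand, the letters bound by E2A proteins, and CCCNNGGG, the core of the EBF1 motif, which reads the same on both strands.
Rag1: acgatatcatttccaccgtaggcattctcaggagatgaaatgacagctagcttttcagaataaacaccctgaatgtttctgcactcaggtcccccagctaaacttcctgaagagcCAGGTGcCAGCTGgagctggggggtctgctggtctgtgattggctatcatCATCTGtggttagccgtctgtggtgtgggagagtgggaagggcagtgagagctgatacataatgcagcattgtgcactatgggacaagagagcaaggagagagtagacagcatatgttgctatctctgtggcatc
Rag2: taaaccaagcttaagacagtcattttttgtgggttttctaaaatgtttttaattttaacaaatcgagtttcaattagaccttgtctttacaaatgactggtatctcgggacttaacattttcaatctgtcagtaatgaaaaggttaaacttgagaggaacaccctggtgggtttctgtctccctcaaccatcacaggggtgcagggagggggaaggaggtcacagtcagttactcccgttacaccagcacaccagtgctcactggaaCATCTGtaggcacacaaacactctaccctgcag
Igll1: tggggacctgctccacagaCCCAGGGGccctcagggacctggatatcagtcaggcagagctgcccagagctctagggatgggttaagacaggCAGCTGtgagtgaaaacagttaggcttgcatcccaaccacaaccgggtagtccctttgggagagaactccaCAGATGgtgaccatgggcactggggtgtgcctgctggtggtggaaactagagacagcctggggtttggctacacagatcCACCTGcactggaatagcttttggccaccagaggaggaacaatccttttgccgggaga
Vpreb1: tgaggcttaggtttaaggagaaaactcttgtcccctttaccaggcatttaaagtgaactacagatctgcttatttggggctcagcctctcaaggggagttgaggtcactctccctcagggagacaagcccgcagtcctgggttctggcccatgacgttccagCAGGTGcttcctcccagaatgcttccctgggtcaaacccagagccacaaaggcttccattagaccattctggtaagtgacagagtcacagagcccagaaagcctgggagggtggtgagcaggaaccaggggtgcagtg
Vpreb2: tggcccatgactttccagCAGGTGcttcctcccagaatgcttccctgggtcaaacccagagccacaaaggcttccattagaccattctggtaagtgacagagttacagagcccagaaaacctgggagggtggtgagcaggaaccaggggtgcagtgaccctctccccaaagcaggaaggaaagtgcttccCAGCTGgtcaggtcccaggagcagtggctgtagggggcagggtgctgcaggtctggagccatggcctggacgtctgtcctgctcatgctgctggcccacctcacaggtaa

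Each of the 5 printed promoters held at least 1 E-box, as did 51.4% of 32851 mouse promoters of the same length. The EBF1 core was found in the Igll1 window alone among these 5, and in 13.7% of all promoters. The windows of Dntt, Lef1 and Erg, which also varied with Igll1, were searched but are not printed. The Dntt window held neither motif, and Erg start 1 held the EBF1 core. Lef1 starts 2 and 3 and Erg start 3 held an E-box, while Lef1 starts 1 and 4 and Erg starts 1 and 2 held none. No capital stretches of the 2 motifs overlapped. The Vpreb1 and Vpreb2 windows matched at 153 of 156 aligned bases (98.1%), so the E-box and its flanks were shared between them. The transcripts of the 2 genes were 97.5% identical over 686 aligned bases, and 32.8% of the 50-base windows of Vpreb2 also occurred in Vpreb1. Reads from such stretches can be assigned to either gene or dropped, so the values of Vpreb1 and Vpreb2 are uncertain. Reads of B230118H07Rik, whose row overlaps Rag1 on the same strand, could likewise not be told apart from those of Rag1 where they overlap. B230118H07Rik also overlaps Rag2, and Top3b overlaps Vpreb1, each on the opposite strand. Whether those reads were told apart is not known, since no source used here gives the strand setting.

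Library totals were between 9788112 and 29405395 counts. Smchd1, the targeted gene, was at 163, 178, 168 and 199 CPM (counts scaled to equal library size, with TMM factors) in del/del males and at 296, 277, 290.3 and 328 CPM in heterozygous males. It was at 141, 136, 129.65, 171.2 and 128 CPM in del/del females and at 269.8, 231, 263, 237 and 238 CPM in heterozygous females. No del/del library reached a heterozygous library of its sex, but Smchd1 RNA remained in each of them. The SMCHD1 protein was not measured here. Cd79a, which encodes a signalling chain of the B cell receptor, went with the B cell label in every group. Its medians were 1460 CPM in del/del and 1470 CPM in heterozygous males and 1180 CPM in del/del and 1150 CPM in heterozygous females. Cd3e, a T cell marker, stayed at or below 7.52 CPM. Markers of other cells were present. The neutrophil and monocyte genes S100a8 and Itgam had group medians of 324 to 566 CPM and 53.9 to 57.9 CPM. The plasmacytoid dendritic cell gene Siglech had group medians of 83.4 to 383 CPM.

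Among the 10 genes the level per length of transcript differed widely, taking the exon length of each gene from GENCODE M21. Vpreb3, which encodes a VpreB-like protein found inside early B cells, was highest in all 4 groups, with 371 ± 42.0 CPM per kilobase in del/del and 452 ± 48.6 in heterozygous males and 677 (467 to 890.5 over the libraries) in del/del and 733 ± 59.0 in heterozygous females (SD, n = 4, 4, 5 and 5). Lef1 was lowest in all 4 groups, with 5.94 ± 1.24 CPM per kilobase in del/del and 7.997 ± 1.21 in heterozygous males and 11.1 ± 2.99 in del/del and 13.8 ± 3.04 in heterozygous females. Rag1 stood second in both female groups, at 168 ± 41.7 CPM per kilobase in del/del and 180.2 ± 30.8 in heterozygous females. In males Dntt stood second, at 119.8 ± 27.8 CPM per kilobase in del/del and 162 ± 17.7 in heterozygous libraries. The spans of Rag1, Dntt, Vpreb1, Igll1 and Il7r, the genes of rank 2 to 6, overlapped between neighbours in this order in all groups except Igll1 and Il7r in males. Rag2, Vpreb2 and Erg lay between 13.02 and 30.5 CPM per kilobase on average, so the partner of Rag1 was far lower than Rag1 itself. The ratio of Rag1 to Rag2 counts was 11.7 ± 1.89 in del/del and 13.01 ± 0.786 in heterozygous males, and 11.7 ± 1.12 in del/del and 11.5 ± 1.62 in heterozygous females (SD), with overlapping ranges.

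**Figure D1:**
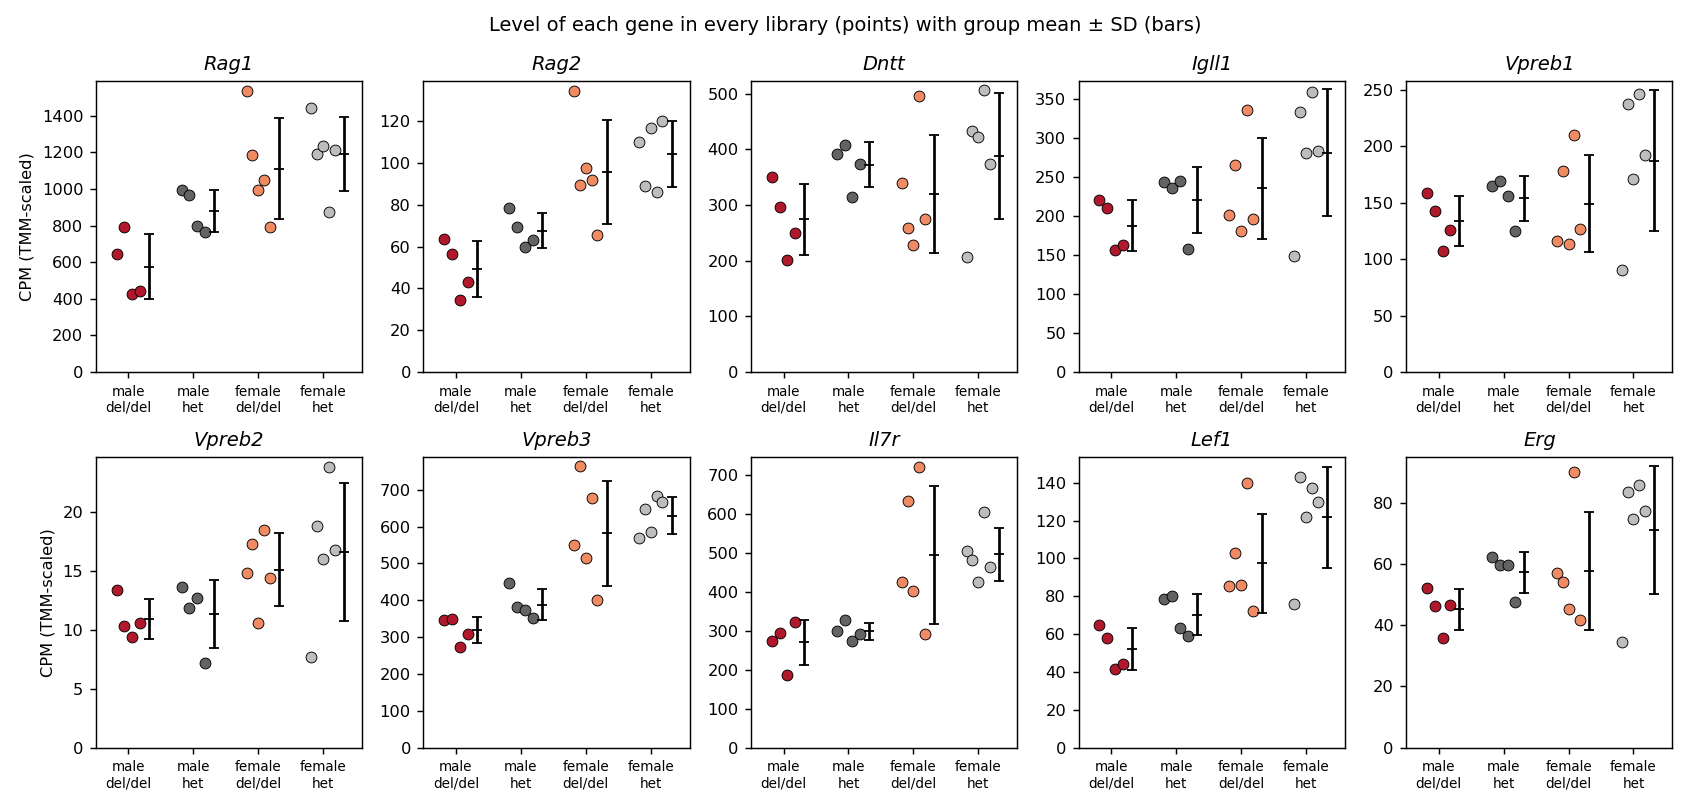
CPM of each gene in each library, as points, with the group mean ± SD beside them (4 del/del and 4 heterozygous male, 5 del/del and 5 heterozygous female libraries; each vertical axis starts at 0). The del/del mean is below the heterozygous mean for each gene in both sexes, and the points overlap except for Vpreb3 in males.

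The first question was whether the genes differ between del/del and heterozygous B cells. None of the 10 passed an adjusted p under 0.05 in males, in females or in both sexes together (edgeR's quasi-likelihood test, Benjamini-Hochberg over all genes tested). Over all genes tested, 0.119% were called in males, 0.252% in females and 0.556% in both sexes together. DESeq2 and limma voom called none of the 10 either. The fitted log2 fold change was below 0 for 10 of 10 genes in males, 10 of 10 in females and 10 of 10 in both sexes together, against 49.4%, 51.2% and 50.1% of all genes. The genes covary from library to library, so these are not 10 separate observations. The median log2 fold change of the 10 was -0.305 in males, -0.199 in females and -0.271 in both together, against medians of all genes of 0.0013, -0.00439 and -0.000478. In sorted populations, fewer cells of a type and less RNA per cell cannot be told apart. The p-values set each difference against the spread between these animals.

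The recombination genes had the larger fitted differences in males, with Lef1 (log2 fold change -0.42) close to Rag2 and Dntt, and none passed the adjusted threshold. The order was not the same in females. There Rag1 (-0.11) and Rag2 (-0.13) had smaller differences than Igll1 (-0.26) and Vpreb1 (-0.34), while Dntt was at -0.29 and Vpreb2 at -0.14. Differences between these kinds of gene were not tested. Rag1 was at 645, 795, 424 and 442 CPM in del/del males and at 992, 969, 796 and 768 CPM in heterozygous males. Del/del libraries 3 and 4 were low, and the highest del/del library lay inside the heterozygous range. The log2 fold change was -0.60 (SE 0.19, unadjusted p = 0.0109, edgeR adjusted p = 1). In females Rag1 was at 1533, 1188, 996, 1050.5 and 791 CPM in del/del and at 1443, 1189, 1234, 874 and 1213.5 CPM in heterozygous libraries. The highest and the lowest female libraries were both del/del, and the log2 fold change was -0.11 (SE 0.17, edgeR adjusted p = 0.975).

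Rag2 was at 63.8, 56.4, 34.3 and 43.0 CPM in del/del males and at 78.6, 69.3, 59.9 and 63.1 CPM in heterozygous males. Again del/del libraries 3 and 4 were low, and del/del library 1 lay within the heterozygous range. Its log2 fold change was -0.44 in males (SE 0.17, unadjusted p = 0.0294, edgeR adjusted p = 1). Female Rag2 was at 134, 89.3, 97.5, 92.0 and 65.7 CPM in del/del and at 110.3, 89.2, 117, 86.4 and 119.96 CPM in heterozygous libraries. As with Rag1, del/del libraries held both the highest and the lowest value (log2 fold change -0.13, SE 0.16, edgeR adjusted p = 0.975).

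Dntt was at 350.1, 297, 201 and 250.5 CPM in del/del males and at 392, 408, 315 and 374 CPM in heterozygous males. The groups overlapped by 1 del/del library above the lowest heterozygous one. The log2 fold change was -0.43 (SE 0.15, unadjusted p = 0.0197, edgeR adjusted p = 1). In females Dntt was at 340.3, 258, 229, 496 and 275 CPM in del/del and at 206, 433, 422, 507 and 373 CPM in heterozygous libraries. Heterozygous library 1 was the lowest of all 10 female libraries, while del/del library 4 stood with the highest heterozygous ones (log2 fold change -0.29, SE 0.24, edgeR adjusted p = 0.975).

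The surrogate light chain genes Igll1, Vpreb1 and Vpreb2 had smaller male differences. Igll1 was at 219.8, 211, 156 and 163 CPM in del/del males and at 243.4, 236, 244 and 158 CPM in heterozygous males. Heterozygous library 4 fell among the low del/del libraries, so the groups overlapped (log2 fold change -0.22, SE 0.16, edgeR adjusted p = 1). In females Igll1 was at 201, 265, 180.1, 335 and 195.85 CPM in del/del and at 149, 334, 280.2, 358.5 and 283 CPM in heterozygous libraries. Del/del libraries 1, 2, 3 and 5 were lower than heterozygous libraries 2 to 5, but heterozygous library 1 was below all of them (log2 fold change -0.26, SE 0.22, edgeR adjusted p = 0.975).

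Vpreb1 was at 159, 143, 107 and 126 CPM in del/del males and at 165, 169.7, 156 and 125 CPM in heterozygous males. Heterozygous library 4 again lay among the low del/del libraries, so the groups overlapped (log2 fold change -0.19, SE 0.13, edgeR adjusted p = 1). Female Vpreb1 was at 116, 178, 114, 210.01 and 127 CPM in del/del and at 90.0, 237, 170.85, 246 and 192 CPM in heterozygous libraries. Heterozygous library 1 was again the lowest (log2 fold change -0.34, SE 0.25, edgeR adjusted p = 0.975). Vpreb2, the least counted of the 10 with as few as 91 reads in a library, had log2 fold changes of -0.05 in males (SE 0.19, edgeR adjusted p = 1) and -0.14 in females (SE 0.25, edgeR adjusted p = 0.975). Vpreb2 ran between 9.36 and 13.4 CPM in del/del and between 7.20 and 13.6 CPM in heterozygous males, and between 10.5 and 18.5 CPM in del/del and between 7.68 and 23.8 CPM in heterozygous females.

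Vpreb3 was the gene whose male groups did not overlap. It was at 347, 349, 273 and 307 CPM in del/del males and at 448, 381, 374 and 351 CPM in heterozygous males, a log2 fold change of -0.27 (SE 0.10, unadjusted p = 0.0224, edgeR adjusted p = 1). All del/del libraries lay below all heterozygous ones, though the nearest values almost touched, and 0.693% of all genes were lower without overlap in males. Without heterozygous library 1 the log2 fold change was -0.21 (unadjusted p = 0.0722). In females Vpreb3 was at 549, 765, 515, 679 and 401 CPM in del/del and at 568, 648, 585, 682 and 666 CPM in heterozygous libraries. The del/del values were the more scattered, on both sides of the heterozygous ones (log2 fold change -0.12, SE 0.15, edgeR adjusted p = 0.975). No member was lower without overlap in females, where the share of all genes was 0.215%.

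Il7r differed least between genotypes in females. It was at 274, 295, 188 and 323 CPM in del/del males and at 298, 328, 274 and 291 CPM in heterozygous males. Del/del library 3 alone was below the heterozygous range (log2 fold change -0.13, SE 0.14, edgeR adjusted p = 1), and without it the value was 0.0055. In females it was at 425, 632, 401, 719 and 291 CPM in del/del and at 505, 482, 425, 604 and 463 CPM in heterozygous libraries. Del/del libraries 2 and 4 were above and libraries 3 and 5 below every heterozygous library, and the log2 fold change was -0.01 (SE 0.21, edgeR adjusted p = 0.995).

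Of the transcription factor genes, Lef1 encodes the HMG-box factor through which Wnt signals act in early B cells. It was at 64.6, 58.0, 41.8 and 44.4 CPM in del/del males and at 78.5, 80.2, 63.1 and 59.3 CPM in heterozygous males. Only del/del library 1 lay within the heterozygous range (log2 fold change -0.42, SE 0.15, unadjusted p = 0.0212, edgeR adjusted p = 1). In females it was at 85.5, 103, 85.9, 140.1 and 72.3 CPM in del/del and at 76.1, 143, 122, 137 and 129.65 CPM in heterozygous libraries. Heterozygous library 1 and del/del library 4 lay with the other genotype (log2 fold change -0.33, SE 0.19, edgeR adjusted p = 0.975). With both sexes together Lef1 had the smallest p of the 10 genes, with a log2 fold change of -0.37 (SE 0.13, unadjusted p = 0.0125, edgeR adjusted p = 0.507).

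Erg, an ETS family factor, was at 52.0, 46.2, 35.8 and 46.5 CPM in del/del males and at 62.4, 59.8, 59.6 and 47.5 CPM in heterozygous males. The groups overlapped through heterozygous library 4, which was below del/del library 1 (log2 fold change -0.34, SE 0.12, unadjusted p = 0.0199, edgeR adjusted p = 1). In females Erg was at 57.2, 54.0, 45.2, 90.1 and 41.8 CPM in del/del and at 34.4, 83.6, 74.6, 85.7 and 77.3 CPM in heterozygous libraries. Heterozygous library 1 was the lowest and del/del library 4 the highest, each outside the range of the other 4 libraries of its group (log2 fold change -0.31, SE 0.25, edgeR adjusted p = 0.975).

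**Figure D2:**
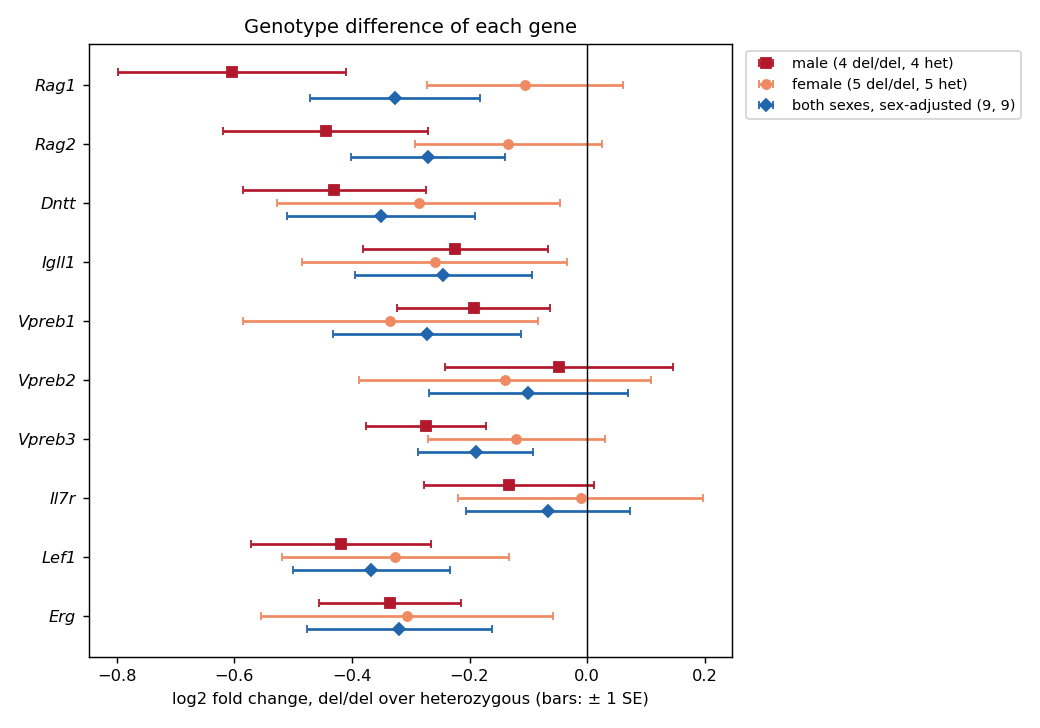
Log2 fold change of each gene, del/del over heterozygous, with bars of ± 1 SE, in males, in females and in both sexes with sex as a term. All 30 values are below 0, the lowest being Rag1 in males at -0.60, and none passed an adjusted p under 0.05.

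Read without adjustment, 6 of the 10 genes (Rag1, Rag2, Dntt, Vpreb3, Lef1 and Erg) were lower in del/del males at p under 0.05, where 1.02% of all genes were. The count was 0 in females, where 1.18% of all genes were lower at that level, and 3 in both sexes together (Rag1, Dntt and Lef1), where it was 2.45%. These counts moved as single libraries were left out. The male count was 2 without heterozygous library 1, 3 without del/del library 3 and 2 without del/del library 4, where 0.81%, 0.57% and 0.589% of all genes were lower. It was 7 without heterozygous library 4, where 1.43% of all genes were lower. Male Rag1 stayed under 0.05 as each library was left out (unadjusted p from 0.0009 to 0.0324, edgeR's quasi-likelihood test). In females the count was 5 (Dntt, Igll1, Vpreb1, Lef1 and Erg) without heterozygous library 1 and 3 (Dntt, Lef1 and Erg) without del/del library 4, where 2.18% and 2.17% of all genes were lower.

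The male and female differences were set against each other with an interaction term. No gene was called of 14017 tested, 0% (edgeR's quasi-likelihood test), while 1.45% had an unadjusted p under 0.05 and DESeq2 called 4 genes, none of them among the 10. For Rag1 the male log2 fold change minus the female one was -0.51 (SE 0.27, unadjusted p = 0.0772, edgeR adjusted p = 1). For Igll1 the difference was 0.02 (SE 0.31), and the span of ± 2 SE around it ran from -0.605 to 0.643, so unequal responses of that size in the sexes were not detectable at this number of libraries. In the authors' deposited table, Rag1 had a log2 fold change of -0.60 in males (adjusted p = 1) and -0.09 in females (adjusted p = 0.976).

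The level of most of the genes differed between the sexes, within the fit over all 18 libraries. Males were lower in all 10 genes, and 6 of 10 (Rag1, Rag2, Vpreb2, Vpreb3, Il7r and Lef1) passed an adjusted p under 0.05, where 21.5% of all genes were called lower and 42.6% were called in either direction. Lef1 had the largest difference, with a log2 fold change of -0.84, male over female (SE 0.14, edgeR adjusted p = 7.7e-05). Il7r was at -0.80 (SE 0.14, edgeR adjusted p = 0.000193), Rag2 at -0.79 (SE 0.13, adjusted p = 0.000115) and Vpreb3 at -0.78 (SE 0.10, adjusted p = 7.04e-06). Rag1 was at -0.69 (SE 0.15, edgeR adjusted p = 0.000992) and Vpreb2 at -0.51 (SE 0.17, adjusted p = 0.0231).

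The other genes did not pass: Dntt was at -0.14 (SE 0.16, edgeR adjusted p = 0.509), Vpreb1 at -0.22 (SE 0.16, adjusted p = 0.29), Igll1 at -0.34 (SE 0.15, adjusted p = 0.0805) and Erg at -0.33 (SE 0.16, adjusted p = 0.1). Without female heterozygous library 1, Igll1 (adjusted p = 0.0131) and Erg (adjusted p = 0.011) passed as well, and with voom Vpreb2 did not (adjusted p = 0.0796). The sexes were deposited as separate tables, so sex and table cannot be told apart. Other lists differed between the sexes as well. Of 19 tested mature B cell genes, 18 were called higher in males, with summed levels of 18020 to 24230 CPM in del/del and 17630 to 23360 CPM in heterozygous males and of 7258 to 16030 CPM in del/del and 8499 to 12110 CPM in heterozygous females. Of 24 proliferation genes, 23 were called lower in males, as were 13 of 17 plasmacytoid dendritic cell genes (list median log2 fold change -1.03), 5 of 5 tested plasma cell genes and 10 of 15 tested other pro-B and pre-B genes. No gene of these lists was at 0 throughout a group. Their part in the sex difference of the 10 genes was not tested.

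The next question was how the 10 genes vary together among animals of 1 sex and genotype. For this each value was taken as the deviation of log2 CPM from the mean of its group, over 18 libraries. Igll1 and Vpreb1 varied almost as one, with Pearson's r = 0.969 and Spearman's rho = 0.944 (permutation p = 1e-05 for each, the smallest that 100000 permutations can give, adjusted p = 0.00015 and 0.00027 over 45 pairs of genes). Without the 2 libraries farthest from the median of Igll1 r was 0.956, and within the sexes it was 0.927 in males and 0.988 in females. For each pair these 2 libraries were picked by the gene that comes first in the list of 10. Vpreb2 followed Igll1 with r = 0.93 (rho 0.891, permutation p = 1e-05 and 2e-05, adjusted p = 0.00015 and 0.00027, r = 0.85 without the 2 farthest libraries), and r was 0.891 in males and 0.943 in females.

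Lef1 and Erg went with this group. Lef1 and Igll1 had r = 0.914 (rho 0.882, permutation p = 9e-05 and 3e-05, adjusted p = 0.000506 and 0.00027), with 0.882 without the 2 farthest libraries, 0.812 in males and 0.951 in females. Erg and Igll1 had r = 0.918 (rho 0.825, permutation p = 9e-05 and 7e-05, adjusted p = 0.000506 and 0.000394), with 0.857 without the 2 farthest libraries, 0.849 in males and 0.945 in females. Dntt and Erg had r = 0.899 (rho 0.831, permutation p = 0.00089 and 0.00061, adjusted p = 0.00334 and 0.00183), with 0.763 without the 2 farthest libraries, 0.668 in males and 0.946 in females. In males this last value rested on del/del library 3, since it was 0.377 without that library. Leaving out female heterozygous library 1, the most extreme, moved the r of these pairs to 0.949 for Igll1 and Vpreb1, 0.877 for Igll1 and Lef1, 0.863 for Igll1 and Erg and 0.84 for Dntt and Erg.

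Rag1 and Rag2 formed a second pair, with r = 0.85 (rho 0.872, permutation p = 0.00074 and 0.00026, adjusted p = 0.00333 and 0.001), 0.833 without the 2 farthest libraries, 0.86 in males and 0.842 in females. Vpreb3 and Il7r also varied together, with r = 0.822 (rho 0.767, permutation p = 0.00368 and 0.00514, adjusted p = 0.00844 and 0.0122) and 0.688 without the 2 farthest libraries. Their r was 0.536 in males and 0.904 in females. In males it was 0.0693 without del/del library 3, so it did not hold there. Vpreb3 was tied to the Igll1 group as well, with rho of 0.827 for Igll1, 0.808 for Vpreb1 and 0.802 for Lef1. The r of these pairs was 0.654, 0.643 and 0.735. In males Vpreb3 had r = 0.899 with Rag2, 0.841 with Lef1 and 0.827 with Rag1. In all, 22 of 45 pairs had an adjusted p under 0.05 for Pearson's r and 15 had r of at least 0.8.

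**Figure D3:**
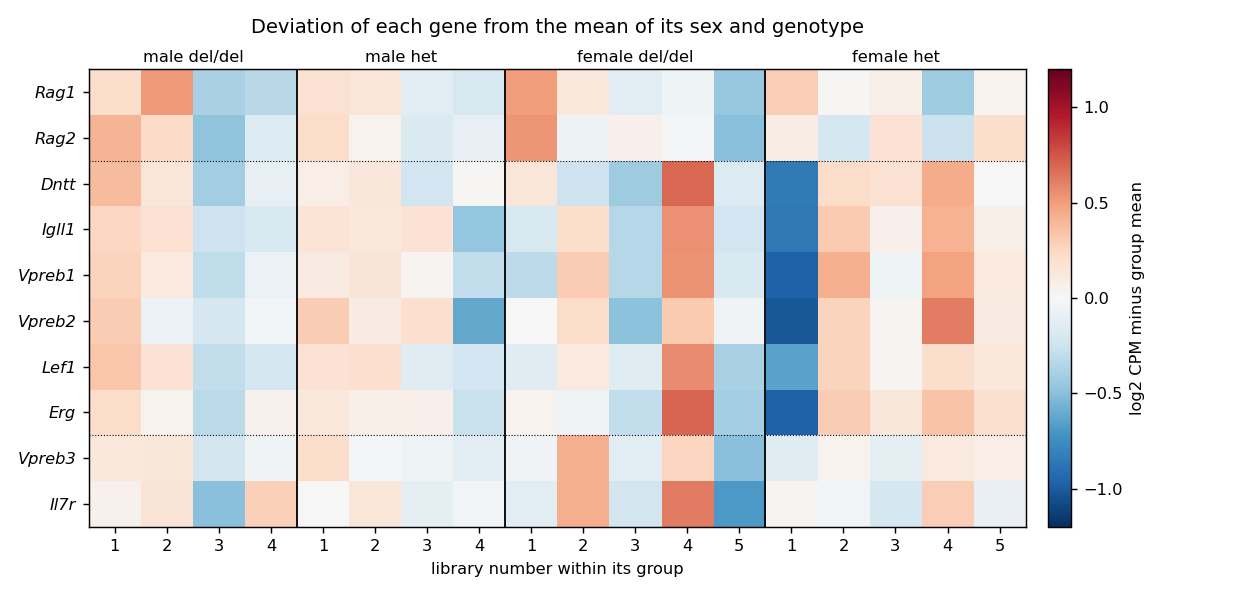
Deviation of each gene's log2 CPM from the mean of its sex and genotype, 1 column a library, with red above and blue below the mean. Female heterozygous library 1 is blue in the band from Dntt to Erg but not in Rag1, Rag2 or Il7r, whereas male del/del library 3 is blue in every gene.

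Over all libraries no relation between the Rag genes and the surrogate light chain genes was detected, but this joins unlike values of the sexes. Rag1 and Igll1 had r = 0.0302 (rho 0.108, permutation p = 0.907 and 0.692, adjusted p = 0.942 and 0.816). It was -0.105 without the 2 libraries farthest from the median of Rag1. Leaving out 1 library at a time it ran from -0.0366 to 0.245, the highest without female heterozygous library 1. Within the sexes the values were unlike: r was 0.733 in males and -0.333 in females. The same held for Rag1 and Lef1, with 0.883 in males and -0.173 in females, and for Rag2 and Dntt, with 0.947 in males and -0.0675 in females. Over the 12 pairs of a Rag gene with Dntt, Igll1, Vpreb1, Vpreb2, Lef1 or Erg, male r ran from 0.415 to 0.947. Female r ran from -0.403 to 0.0165, over 10 libraries against 8 in males. This grouping follows the values and the pairs share genes, so it is a description only. The lowest male value, Rag1 and Vpreb2, was 0.335 without del/del library 3. With Vpreb3 and Il7r, left out of the grouping, female r was 0.254 and 0.167 for Rag1 and 0.204 and 0.101 for Rag2. The difference between the sexes was not tested. Leaving out 1 library at a time, r of Rag1 and Igll1 stayed between 0.678 and 0.824 in males and between -0.533 and -0.118 in females. Female r crossed 0 for Rag1 and Lef1, from -0.51 to 0.0843 (the highest without heterozygous library 1). It also did for Rag2 and Dntt, from -0.188 to 0.0519 (the highest without heterozygous library 4).

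**Figure D4:**
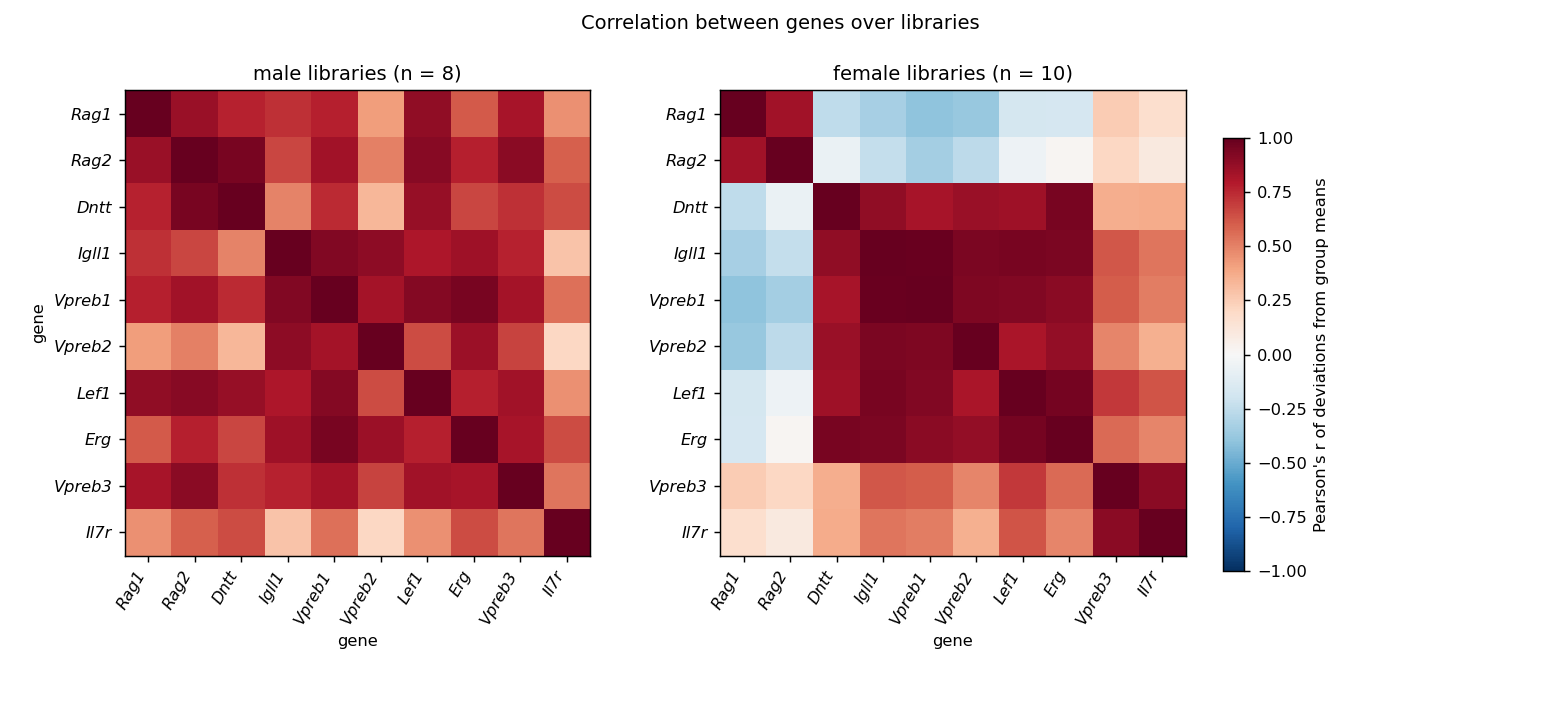
Pearson's r between each pair of genes, over deviations from group means, in 8 male and 10 female libraries. The block from Dntt to Erg is red in both sexes, while the Rag1 and Rag2 rows are red throughout in males and near 0 or blue against that block in females.

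Some libraries stood at the edge of their groups in several genes. Female heterozygous library 1 had the highest Rag1 of its group, at 1443 CPM, and the lowest Dntt, Igll1, Vpreb1, Vpreb2, Lef1, Erg and Vpreb3. Its ratio of Rag1 to Igll1 counts was 9.715, the highest of its group, whose lowest was 2.44. Its summed levels of 9346 CPM for mature B cell genes and 5564 CPM for the list of other pro-B and pre-B genes lay within the ranges of the other 4 heterozygous females. Its summed proliferation level of 5567 CPM was the lowest of its group, and its plasmacytoid dendritic cell level of 1534 CPM the highest.

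Male del/del library 3, by contrast, had the lowest value of 9 of the 10 genes among all 8 males. It had the lowest proliferation level of the males, 2976 CPM, and the highest level of neutrophil and monocyte genes, 6214 CPM. Female del/del library 5 had the lowest Rag1, Rag2, Vpreb3, Il7r and Lef1 among females, the lowest proliferation level at 3725 CPM, and the highest mature B cell and neutrophil and monocyte levels, at 16030 and 5310 CPM. The part of these levels in the values of the 10 genes was not tested.

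**Figure D5:**
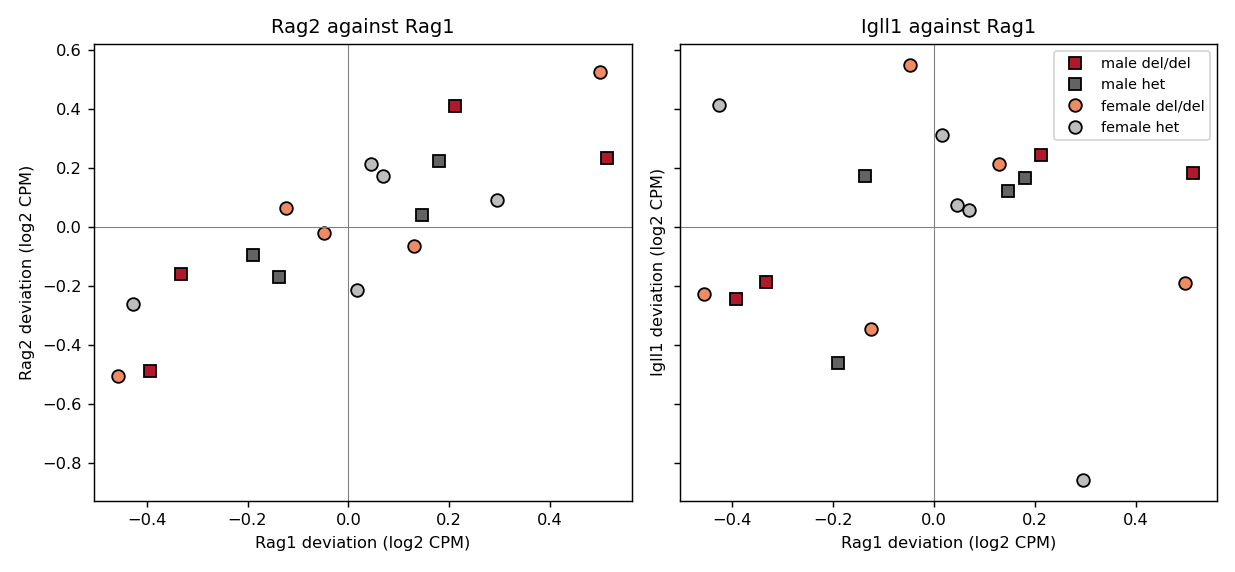
Deviations of Rag2 (left) and Igll1 (right) against those of Rag1, in log2 CPM, with squares for male and circles for female libraries. Rag2 rises with Rag1 in both sexes, whereas female heterozygous library 1, at the bottom right, has high Rag1 with the lowest Igll1.

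Genes outside the set that varied most like its members were found among 11658 genes by Pearson's r of the same deviations over 18 libraries, as a description. Nearest to Rag1 were B230118H07Rik (0.895), which overlaps it, Il2ra (0.88), the interleukin 2 receptor alpha chain that marks pre-B cells in mouse marrow, Tram2 (0.876), Steap4 (0.869) and F9 (0.868), and Rag2 was at rank 11. Nearest to Igll1 were Vpreb1 (0.969), Egfl7 (0.942), 2900026A02Rik (0.941), Vpreb2 (0.93) and Gpr56 (0.924), with Erg and Lef1 at ranks 8 and 9. Nearest to Lef1 was 2900026A02Rik (0.959), ahead of Ubash3a (0.927), Igll1 (0.914), Vpreb1 (0.909) and Steap3 (0.906). Il7r had other neighbours: Cops3 (0.944), Pou2af1 (0.943), which encodes a B cell coactivator, Cops5 (0.932), Dnajc21 (0.93) and Pppde2 (0.924).

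The other genes of these pathways were read from lists. Of 11 tested genes of V(D)J end joining, 0 passed in males, in females or in both sexes together by edgeR's test, and none had an unadjusted p under 0.05. In both sexes together Lig4, the ligase that seals the joints, was at -0.12 on the log2 scale (SE 0.09, adjusted p = 0.818), and the median of the list was -0.012. Of 12 tested genes of pre-B receptor signalling, 0 passed and none had an unadjusted p under 0.05 in any of the 3 comparisons. Blnk, the adaptor of the receptor, was at -0.09 (SE 0.06, edgeR adjusted p = 0.805) and the kinase gene Btk at 0.09 (SE 0.05, adjusted p = 0.801), with a list median of -0.00195.

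Of 16 genes of interleukin 7 signalling, 0 passed, and 2 were lower at an unadjusted p under 0.05 in both sexes together, where 2.45% of all genes were lower and 4.3% higher. Socs1, an inhibitor of cytokine signals, was at -0.21 (SE 0.08, edgeR adjusted p = 0.56) and the cyclin gene Ccnd3 at -0.24 (SE 0.11, adjusted p = 0.718). Of 15 tested regulators of the 10 genes, 0 passed, and 1, Irf8, was higher at an unadjusted p under 0.05 in both sexes together, at 0.21 (SE 0.09, edgeR adjusted p = 0.679). Ikzf1, which encodes Ikaros, was at -0.11 (SE 0.07, edgeR adjusted p = 0.807). The regulators Ebf1 and Pax5, of the B cell list, were at -0.06 (SE 0.08, adjusted p = 0.883) and -0.07 (SE 0.05, adjusted p = 0.829).

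The list nearest in kind, 15 tested other genes of pro-B and pre-B cells, had 0 that passed, with 5 lower and 2 higher in del/del males at an unadjusted p under 0.05 and a male median log2 fold change of -0.3. Of all genes, 1.02% were lower and 2.32% higher in males at that level. In both sexes together Il2ra was at -0.29 (SE 0.12, edgeR adjusted p = 0.679), Arpp21 at -0.39 (SE 0.18, adjusted p = 0.719), Flt3, a receptor of early progenitors and dendritic cells, at 0.38 (SE 0.14, adjusted p = 0.553) and Cd2 at 0.12 (SE 0.05, adjusted p = 0.662). Of the 15, 12 were negative in males and 12 in both sexes together, where the median was -0.173.

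The other lists were read beside these values, and 1 of their genes passed the test in both sexes together. Of 17 plasmacytoid dendritic cell genes, 17 had a positive log2 fold change in both sexes together and 1, Il3ra, was called higher in del/del libraries (log2 fold change 0.55, SE 0.08, edgeR adjusted p = 0.00111). At an unadjusted p under 0.05, 8 of the 17 were higher in both sexes together, where 4.3% of all genes were. The count was 9 in males (2.32% of all genes) and 4 in females (3.12%). The summed level of that list ran from 688 to 968 CPM in del/del and from 664 to 802 CPM in heterozygous males, and from 926 to 2029 CPM in del/del and from 881 to 1534 CPM in heterozygous females. Of 24 proliferation genes 24 were negative, and 0 passed (none at an unadjusted p under 0.05). Their summed level ran from 2976 to 4195 CPM in del/del and from 3423 to 4408 CPM in heterozygous males, and from 3725 to 7068 CPM in del/del and from 5567 to 6898 CPM in heterozygous females.

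Of 13 tested erythroid genes 12 were negative in both sexes together and 9 were lower at an unadjusted p under 0.05, where 2.45% of all genes were, with 0 called. The count at that level was 8 in females (1.18% of all genes) and 1 in males (1.02%). Their summed level ran from 601 to 711 CPM in del/del and from 599 to 1275 CPM in heterozygous males, and from 561 to 1012 CPM in del/del and from 706 to 1084 CPM in heterozygous females. Mature B cell genes were negative in 2 of 19 in both sexes together and in 1 of 19 in females, with 0 called and none at an unadjusted p under 0.05. Neutrophil and monocyte genes were negative in 2 of 16 in both sexes together and in 0 of 15 in males, likewise with 0 called and none at an unadjusted p under 0.05. The summed neutrophil and monocyte level ran from 1975 to 6214 CPM in del/del and from 1888 to 3634 CPM in heterozygous males, and from 1044 to 5310 CPM in del/del and from 1562 to 3658 CPM in heterozygous females. No gene of these 5 lists was at 0 throughout a group. Their part in the values of the 10 genes was not tested. Of 16 tested T and NK cell genes, 10 were negative in both sexes together, 0 passed, and 4 were lower and 1 higher at an unadjusted p under 0.05. The shares of all genes at that level were 2.45% lower and 4.3% higher.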

How the data were processed

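The 10 genes and all lists were chosen with earlier results of these data known. Raw counts of reads per gene, not normalized, were deposited in 1 table per sex with a column for each library. The submitters' processing notes name bcl2fastq, FastQC, Trim Galore, TopHat, edgeR 3.32.1 and the builds mm10 and GRCm38. What program counted the reads, and with what strand setting, is not given in the sources used here. Per the file headers, the deposited results hold log2 fold changes, log2 CPM, an F statistic (a score) and p-values. They are quoted only as the authors' own. The deposited group means of counts, a signal per gene, were not used. Of the rows, 56 had no gene identifier (at most 0.0846% of a library's counts) but carried a symbol and stayed in.

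Counts were tested in R 4.3.3 with edgeR 4.0.16: filterByExpr (minimum count 10, minimum total 15), TMM factors, quasi-likelihood test, Benjamini-Hochberg over all genes tested, called under 0.05. The fits were del/del against heterozygous within males, within females and over 18 libraries with sex as a term, and the interaction of sex and genotype. The comparison of the sexes was added after the values were seen. The SE is the log2 fold change divided by the square root of F. The procedure was tested on simulated data with planted differences larger than those fitted for the 10 genes. That test does not bear on differences of the size seen here. Correlations used deviations of log2 CPM from group means, with permutation within groups. DESeq2 1.42.0, voom (limma 3.58.1), other scaling factors, no filter, all libraries in one fit, pairs of nearest animal numbers and leaving out each library were the alternatives. No 2 libraries of a group agreed within counting noise (lowest chi-square per gene 5.869). Named genes were all 10 members, up to 4 of each list with the smallest p over both sexes, and the 5 genes most like Rag1, Igll1, Il7r and Lef1. Promoters came from RefSeq (GRCm38.p6), where 10 of 10 genes matched, and were searched for motifs as plain letters. All deposited columns of single libraries were used.

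The labels give no pairs. Deviations of del/del and heterozygous males of nearest animal number correlated at 0.116, 0.247, 0.208 and 0.423. In females the values were 0.453, 0.16, -0.036, 0.225 and 0.25. Neither sex was taken as paired in the main fits, and these pairs served only as an alternative.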

Additional observations from a re-analysis of the deposited data

Results flagged for a closer look

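Of 40 sets of values (10 genes in 4 groups), 2 held a library far from the others of its group by Dixon's test, which chance alone does in about 1 of 20 such sets. Erg in female heterozygous library 1 was at 34.4 CPM, against 74.6 CPM in the nearest of the other 4. Igll1 in male heterozygous library 4 was at 158 CPM, against 236 CPM in the nearest of the other 3.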

How the results depend on the processing

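The count of the 10 genes called at an adjusted p under 0.05 was 0 under each alternative run in the male, female, joint and interaction fits. The count of all genes called was 49 in males, 92 in females, 141 in both together and 4 for the interaction with DESeq2, and 58 in females with all 18 libraries in one fit. It ran from 5 to 22 in males as each library was left out. The count of the 10 genes lower at an unadjusted p under 0.05, an alternative added after seeing the data, ran from 2 to 7 in males, from 0 to 5 in females, from 1 to 7 in both together and from 0 to 1 for the interaction as each library was left out. In both together it was 1 without female del/del libraries 3 or 5, male heterozygous libraries 1 or 2, or male del/del libraries 3 or 4, where 1.64% to 2.4% of all genes were lower. It was 5 without male del/del library 1 (2.86% of all genes), 6 without female heterozygous library 1 (3.2%) and 7 without female del/del library 4 (4.25%). It was 2 in males with all 18 libraries in one fit (0.735% of all genes), and 5 in both together with DESeq2 (2.25%) and with voom (2.64%).

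With the replicate block of nearest animal numbers the count was 6 in males, 1 in females, 8 in both together and 1 for the interaction, where 2.62%, 3.41%, 6.28% and 1.51% of all genes were lower. The lowest adjusted p of the 10 with that block was 0.12 in males and 0.0988 in both together, each for Lef1, and it changed no call.

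Signs were stable for Rag1, Rag2, Vpreb1 and Vpreb3 in each alternative run, but the female values of Rag1 (-0.25 to -0.0051), Rag2 (-0.29 to -0.03) and Vpreb3 (-0.23 to -0.01) came near 0 as 1 library was left out. The female Il7r value was 0.000285 with upper quartile factors and the Vpreb2 interaction was -0.0325 with voom. As each library was left out, log2 fold changes crossed 0 for Vpreb2 (-0.21 to 0.0385 in males, -0.33 to 0.0357 in females, -0.0945 to 0.26 interaction) and Il7r (-0.23 to 0.0055 in males, -0.18 to 0.13 in females, -0.16 to 0.0044 in both, -0.28 to 0.0396 interaction). The interaction also crossed 0 for Dntt (-0.30 to 0.0546), Igll1 (-0.11 to 0.18), Lef1 (-0.23 to 0.0593) and Erg (-0.14 to 0.17). The cause was not tested. With 4 or 5 animals a group, the SE of a member's log2 fold change was 0.10 to 0.25, which limits the size of difference these data can show.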
